A study of Mus musculus with 2 samples.

Results

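The 10 genes described here encode the enzymes that mature and cross-link fibrillar collagen outside the cell, and the glycoproteins that assist them. The rule names them by their role in this pathway: the 5 lysyl oxidases *Lox*, *Loxl1*, *Loxl2*, *Loxl3* and *Loxl4*, the procollagen C-proteinase *Bmp1*, its enhancers *Pcolce* and *Pcolce2*, and the procollagen N-proteinases *Adamts2* and *Adamts14*. All 10 were among the 24532 genes of the count table and among the 11754 genes with a mean level above 1 TPM, the unit of transcript abundance scaled for gene length and library size. RNA sequencing was performed on cultured mouse cardiac myofibroblasts, the matrix-producing fibroblasts of the injured heart, which had been isolated from C57BL/6 hearts 3 days after myocardial infarction. Both libraries came from cells in DMEM with 10% foetal bovine serum that had been transfected with 12.5 nM siRNA by Lipofectamine RNAiMAX and kept for 72 h. One received control siRNA (siCtrl) and the other siRNA against *Vgll3* (si*Vgll3*), a transcriptional cofactor known to bind TEAD proteins. The study asked which genes depend on *Vgll3* in these cells.

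Fibrillar collagen is secreted as procollagen, whose ends carry propeptides that keep it soluble. BMP1 removes the C-propeptide, PCOLCE and PCOLCE2 speed that cut, and ADAMTS2 and ADAMTS14 remove the N-propeptide, after which the trimmed molecules assemble into fibrils. Lysyl oxidases, copper-dependent enzymes, then oxidise lysine residues in collagen and elastin so that neighbouring molecules become covalently linked, a step that stiffens the scar after infarction. BMP1 also activates the precursor of LOX itself, so trimming and cross-linking meet in the same proteinase.

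Each condition had 1 library, which leaves every difference without a replicate check, and p values are not given. The change of a gene is given as M, the log2 ratio of its TPM in si*Vgll3* to that in siCtrl, and A is the log2 of its mean TPM. A gene was called lower below an M of −0.5 and higher above 0.5, with A above 0. Of all 11754 genes with A above 0, 11.4% were lower and 5.73% were higher. Intervals are 95% Clopper-Pearson intervals of the read counts for M, and Poisson intervals for ratios and shares. They cover counting error only and say nothing of the spread between cultures. The libraries held 140815237 (siCtrl) and 125789276 (si*Vgll3*) reads counted on genes. *Vgll3* itself was at 202 TPM in siCtrl against 84.0 TPM in si*Vgll3*, which left 41.6% of its level. All 10 fibroblast markers had reads, with a summed level of 16952 TPM in siCtrl against 16797 TPM in si*Vgll3*. That near-equal sum holds markers on both sides of 0, from an M of −1.22 for *Postn*, −0.90 for *Col1a1*, −0.74 for *Pdgfrb* and −0.58 for *Tcf21* to 0.52 for *Tagln* and 0.72 for *Thy1*. Of the leukocyte markers, *Ptprc*, *Itgam*, *Adgre1* and *Cd3e* had no read, and the 8 together summed to 15.0 TPM in siCtrl against 8.46 TPM in si*Vgll3*. Most of the leukocyte sum in siCtrl was *Lyz2* (M −1.80), while *Cd68*, *Csf1r* and *Cd14* had M of −0.09, 0.50 and 0.62. Endothelial markers summed to 24.0 and 19.6 TPM, mural markers to 9.32 and 4.61 TPM, and mesothelial markers to 40.8 and 20.6 TPM. Most of the endothelial sum was *Tek* (M −0.54), while *Pecam1*, *Cdh5* and *Kdr* had M of 0.47, 0.50 and 0.97. Most of the mesothelial sum was *Upk3b* in siCtrl (M −1.68), while *Msln* had an M of 1.91. Of 7 cardiomyocyte markers 5 had no read (*Myh6*, *Myh7*, *Actn2*, *Ryr2* and *Nppa*), and the list summed to 60.05 TPM in siCtrl against 10.4 TPM in si*Vgll3*, all of it *Tnnt2*. The part of these other cells in the values below was not tested. In bulk RNA, fewer cells of a type and less RNA per cell cannot be told apart.

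After *Vgll3* knockdown 5 of the 10 genes were lower and the other 5 were not called in either direction. *Adamts14*, *Loxl3*, *Adamts2*, *Pcolce* and *Loxl2* were lower, with M from −0.79 to −0.52, and the whole counting interval of each lay below −0.5. Those intervals do not cover the choice of scaling, and other scalings left *Loxl2* uncalled, as given below. The 5 lower genes make up 50% of the members, beside 11.4% of all genes, and 0 members were higher, beside 5.73% of all genes. These shares only describe the list, since the members were chosen with earlier results of these data known. *Lox*, *Loxl1*, *Loxl4*, *Bmp1* and *Pcolce2* had M from −0.14 to 0.41. The median M was −0.33 over the members and −0.05 over all genes with A above 0. The members' median fell into an empty stretch, since no member had an M between −0.52 and −0.14. Each functional class other than the single C-proteinase and the N-proteinases therefore held lower and uncalled genes side by side. The 10 genes summed to 3845 TPM in siCtrl against 3259 TPM in si*Vgll3*, an M of −0.24 for the sum.

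**Figure D1:**
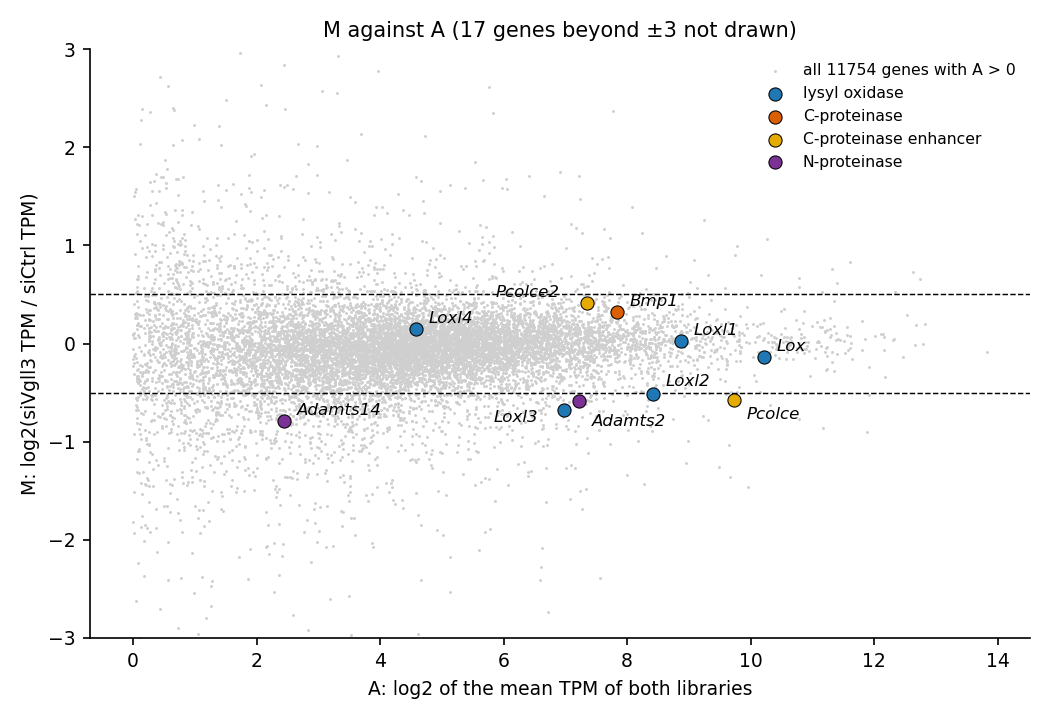
Each grey point is 1 of the 11754 genes with A above 0, with A (log2 of the mean TPM of both libraries) on the horizontal axis and M (log2 of si*Vgll3* over siCtrl TPM) on the vertical axis, and coloured points are the 10 members by role. *Adamts14*, *Loxl3*, *Adamts2*, *Pcolce* and *Loxl2* lie below the dashed line at −0.5, and no member lies above the line at 0.5.

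*Lox* encodes the founding lysyl oxidase and was the member with the most mRNA. It was at 1252 TPM (383870 reads) in siCtrl against 1138 TPM (325073 reads) in si*Vgll3*, the 135th and 142nd highest levels of the 14158 genes with a TPM. Its M was −0.14 (95% counting interval −0.14 to −0.13), so 90.9% of the control level was left. *Loxl1*, a lysyl oxidase best known for elastic fibre upkeep, was at 463 TPM in siCtrl against 470 TPM in si*Vgll3*, with an M of 0.02 (0.01 to 0.03). The pair that differs from LOX by its scavenger receptor domains and was lower is *Loxl2* and *Loxl3*. *Loxl2*, which cross-links collagen IV as well as fibrillar collagens, was at 405 TPM in siCtrl against 283 TPM in si*Vgll3*, with an M of −0.52 (−0.53 to −0.50). That value sits just past the threshold, and 4 other scalings placed it between −0.48 and −0.47, where it is no longer called. *Loxl3* was at 155 TPM in siCtrl against 97.0 TPM in si*Vgll3*, with an M of −0.68 (−0.70 to −0.65) and 62.6% of the control level left. *Loxl4*, the lysyl oxidase with the least mRNA here, was at 22.8 TPM in siCtrl against 25.3 TPM in si*Vgll3*, with an M of 0.15 (0.10 to 0.19). *Loxl4* carries the same scavenger receptor domains as *Loxl2* and *Loxl3*, so the lower genes were not the whole of that subfamily.

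The differences within the family exceeded their counting error. *Loxl2* differed from *Lox* in M by −0.38 (−0.39 to −0.37), and its level per *Lox* transcript went from 0.323 in siCtrl to 0.249 in si*Vgll3*. *Loxl3* per *Loxl1* transcript went from 0.335 to 0.206, a difference in M of −0.70. The lower pair differed from each other by −0.16 (*Loxl3* minus *Loxl2*, −0.19 to −0.13). Of the summed lysyl oxidase mRNA, 2298 TPM in siCtrl against 2014 TPM in si*Vgll3* (M −0.19), *Lox* made up 54.5% in siCtrl and 56.5% in si*Vgll3*. *Loxl1* made up 20.2% and 23.4%, *Loxl2* 17.6% and 14.1%, *Loxl3* 6.75% and 4.82%, and *Loxl4* 0.992% and 1.25%. *Lox* and *Loxl1* thus supplied most lysyl oxidase mRNA in both libraries. The genes lie apart in the genome. In GENCODE coordinates of GRCm38, the assembly also called mm10, *Lox* (NCBI gene 16948) spans chromosome 18, 52516067 to 52529867, minus strand, and *Loxl1* (16949) chromosome 9, 58287738 to 58313186, minus strand. *Loxl2* (94352) spans chromosome 14, 69609068 to 69695834, plus strand, *Loxl3* (16950) chromosome 6, 83034173 to 83052562, plus strand, and *Loxl4* (67573) chromosome 19, 42593982 to 42612813, minus strand. An exon of *Loxl3* overlaps *Htra2*, a gene on the opposite strand with 6157 reads in siCtrl against 5192 in si*Vgll3*. Whether reads were counted by strand is not given in the sources used here, so reads in such an overlap cannot be assigned with certainty. *Lox* and *Loxl2* likewise overlap annotated antisense transcripts.

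**Figure D2:**
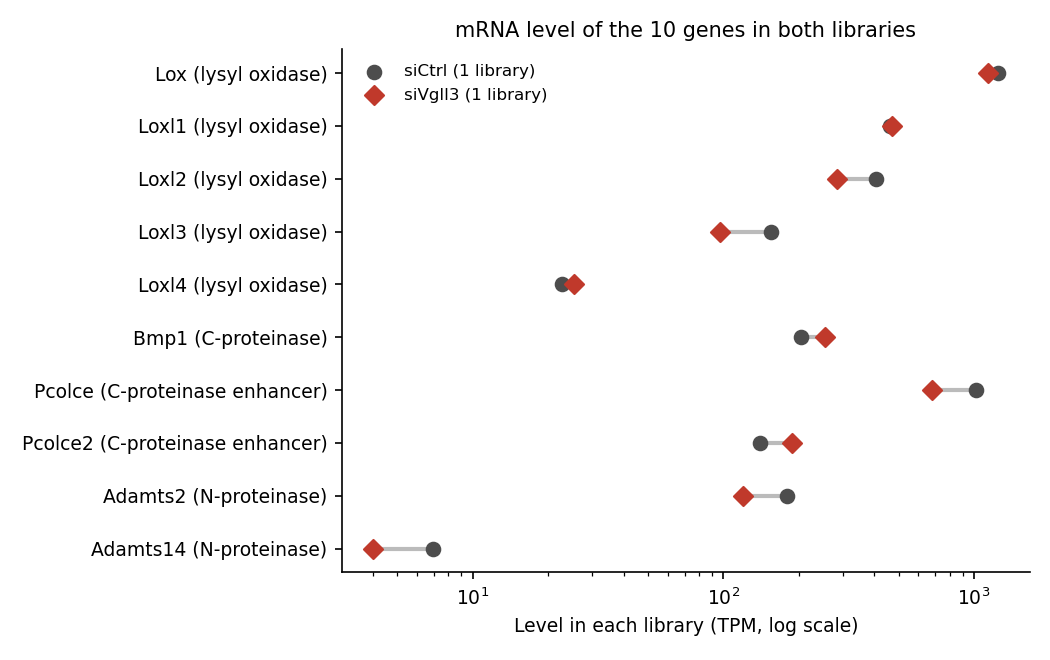
The level of each member in TPM, on a log axis, is shown for the siCtrl library and the si*Vgll3* library, 1 point each, grouped by role. The levels run from 1252 TPM for *Lox* in siCtrl to 4.01 TPM for *Adamts14* in si*Vgll3*, and *Pcolce2* lies below *Adamts2* and *Loxl3* in siCtrl and above both in si*Vgll3*.

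*Bmp1* and its enhancers did not share a direction, and only *Pcolce* was called. *Bmp1*, the main procollagen C-proteinase, was at 204 TPM (51148 reads) in siCtrl against 254 TPM (58549 reads) in si*Vgll3*, with an M of 0.32 (0.30 to 0.34) that did not reach 0.5. Of all genes with A above 0, 89.3% had a lower M. *Pcolce*, the enhancer that binds the C-propeptide and makes BMP1 cut faster, was the second most abundant member after *Lox*. It was at 1016 TPM (99849 reads) in siCtrl against 679.59 TPM (61797 reads) in si*Vgll3*, with an M of −0.58 (−0.59 to −0.57), which left 66.9%. *Pcolce2*, the enhancer of the same family known from the heart, was at 140.4 TPM (16730 reads) in siCtrl against 187 TPM (20614 reads) in si*Vgll3*, with an M of 0.41 (0.38 to 0.44), above that of 92.6% of all genes but not past 0.5. The enhancers differed in M by −0.99 (*Pcolce* minus *Pcolce2*, −1.03 to −0.96), so the control cells had 7.24 *Pcolce* transcripts per *Pcolce2* transcript and the knockdown cells 3.63. *Pcolce2* made up 12.1% of the enhancer mRNA in siCtrl and 21.6% in si*Vgll3*, while the summed level was 1157 TPM and 867 TPM (M −0.42). *Pcolce* was still the main enhancer in both libraries. *Bmp1* per *Pcolce* transcript went from 0.200 to 0.374, a difference in M of 0.90 (0.88 to 0.92). *Bmp1* and *Pcolce2* differed little, by −0.09 (−0.13 to −0.06).

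**Figure D3:**
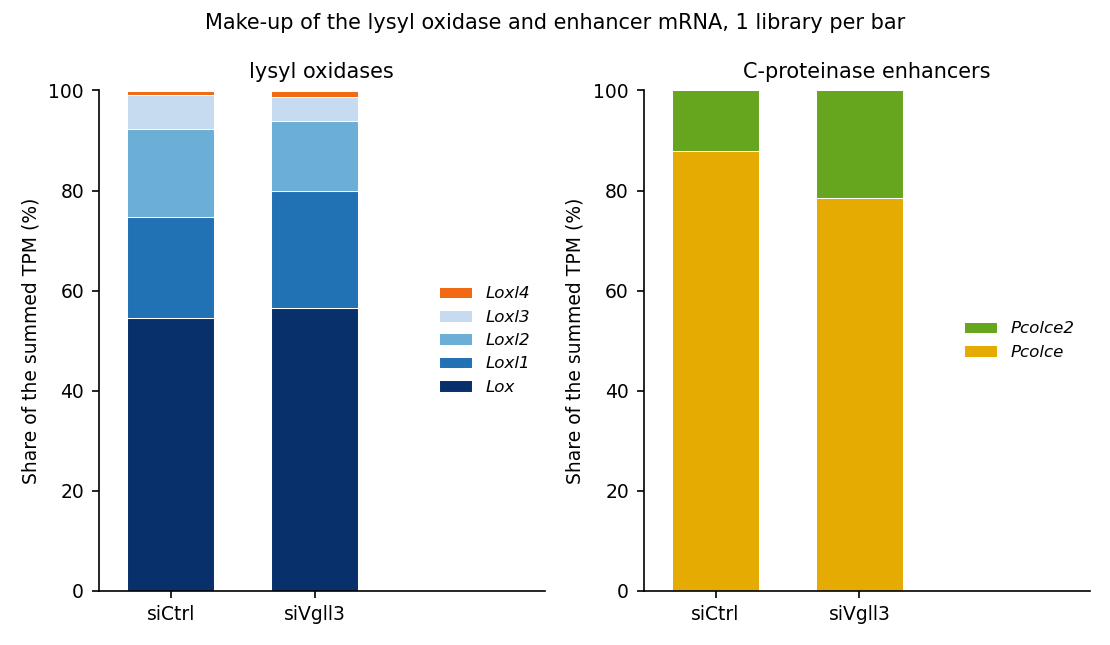
The stacked bars give the share, in percent, of each gene in the summed TPM of the lysyl oxidases (left) and of the C-proteinase enhancers (right) in siCtrl and in si*Vgll3*. The share of *Pcolce2* among the enhancers is 12.1% in siCtrl and 21.6% in si*Vgll3*, while *Lox* is the largest part of the lysyl oxidase mRNA at 54.5% and 56.5%.

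The promoters of the enhancers are printed here because the pair shares a function while only *Pcolce* was lower. The windows run from 250 bases before to 50 bases after a RefSeq start on GRCm38.p6, and capitals mark the GC box, the core letters bound by SP1-type factors, searched as GGGCGG on both strands and here lying on the strand opposite to the printed one. *Pcolce* (18542) lies on the minus strand of chromosome 5, 137605103 to 137613784, with its window at chr5:137611355-137611654, whose start lies 118 bases inside the span that RefSeq gives the gene and farther inside the GENCODE span. *Pcolce2* (76477) lies on the plus strand of chromosome 9, 95637601 to 95698096, with its window at chr9:95637378-95637677.
Pcolce: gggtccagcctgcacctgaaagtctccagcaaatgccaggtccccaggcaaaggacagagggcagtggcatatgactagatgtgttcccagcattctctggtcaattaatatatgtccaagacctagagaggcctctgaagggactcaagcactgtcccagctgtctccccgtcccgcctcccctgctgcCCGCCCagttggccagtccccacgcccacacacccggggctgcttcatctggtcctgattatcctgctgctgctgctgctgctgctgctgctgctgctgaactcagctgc
Pcolce2: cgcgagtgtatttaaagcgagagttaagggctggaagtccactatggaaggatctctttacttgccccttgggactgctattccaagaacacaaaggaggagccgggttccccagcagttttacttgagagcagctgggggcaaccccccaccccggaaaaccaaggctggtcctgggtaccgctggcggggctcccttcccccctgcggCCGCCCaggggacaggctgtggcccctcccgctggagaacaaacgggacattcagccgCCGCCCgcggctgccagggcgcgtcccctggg
The *Pcolce* window holds 1 GC box and is 59.3% G and C, and the *Pcolce2* window holds 2 and is 63.7% G and C, beside a median of 52.7% over all 32851 windows. A GC box on either strand is found in 35.7% of all windows. The TEAD core GGAATG, searched on both strands because VGLL proteins are known to bind TEAD factors, whose part in these values was not tested, is in 14.7% of all windows and in neither of these. It is also absent from the windows of *Adamts2*, *Adamts14* and *Loxl4*, the other members with a window in the table, and so is TATAAA, which 13.6% of all windows hold. Those 3 windows are richer in G and C, at 77.3%, 76.7% and 75%, with 5, 7 and 3 GC boxes. A match is only a run of letters, and its absence concerns only these windows. *Bmp1* (12153) lies on the minus strand of chromosome 14, 70474558 to 70520234. *Pcolce* shares exon sequence with *Fbxo24* on its own strand, which had 22 reads in siCtrl against 32 in si*Vgll3*, and with an annotated antisense transcript.

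Both N-proteinases were lower. *Adamts2*, the main procollagen N-proteinase, whose loss makes the skin fragile, was at 179.9 TPM (83431 reads) in siCtrl against 120.2 TPM (51602 reads) in si*Vgll3*, with an M of −0.58 (−0.60 to −0.57), which left 66.8%. *Adamts14*, a close relative with the same activity on procollagen, was at 6.92 TPM (2292 reads) in siCtrl against 4.01 TPM (1229 reads) in si*Vgll3*. It had the lowest M of the members, −0.79 (−0.89 to −0.69), and 5.19% of all genes had a lower one. The difference between them was −0.21 (*Adamts14* minus *Adamts2*, −0.31 to −0.11). *Adamts2* made up 96.3% of their summed mRNA in siCtrl and 96.8% in si*Vgll3*, so the sum of 187 TPM in siCtrl against 124 TPM in si*Vgll3* (M −0.59) is in effect that of *Adamts2*. The M of *Adamts2* and *Pcolce* could not be told apart by counting error, with a difference of −0.001 (−0.02 to 0.02). *Bmp1* per *Adamts2* transcript went from 1.13 in siCtrl to 2.12 in si*Vgll3*, a difference in M of 0.90. *Adamts2* (216725) lies on the plus strand of chromosome 11, 50602084 to 50807573, and *Adamts14* (237360) on the minus strand of chromosome 10, 61197112 to 61273438.

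The study followed miR-29b, a microRNA known to repress collagen and other matrix genes, so the 3′ UTRs of the members were searched for the match to its seed, TGGTGCT, on the transcript strand. The mature RNA is printed from RefSeq (GRCm38.p6) with the seed, bases 2 to 8, in capitals. Then follow the matches of *Loxl2*, *Adamts2* and *Loxl4*, each with its flanks on the transcript strand of GRCm38 and the match in capitals, to set the lower *Loxl2* and *Adamts2* beside the uncalled *Loxl4*. *Lox*, also uncalled, holds 3 matches that are not printed.
miR-29b-3p: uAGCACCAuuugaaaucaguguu
Loxl2 chr14:69694748-69694754: cagctcatggaaTGGTGCTactggtgtcta
Loxl2 chr14:69695110-69695116: tagcattgtgaaTGGTGCTaatatagggtc
Adamts2 chr11:50804967-50804973: agtttcaaaaccTGGTGCTcaaaatgtgtg
Adamts2 chr11:50806451-50806457: accagataaagaTGGTGCTtaaccttcctc
Adamts2 chr11:50806930-50806936: ctccagagttagTGGTGCTcatacacgtgt
Adamts2 chr11:50807362-50807368: taagtatataaaTGGTGCTtagtaccaatg
Loxl4 chr19:42595021-42595027: gccccctctaagTGGTGCTttgcaaatgtc
*Adamts2* holds 4 matches in a 3′ UTR of 3544 bases, *Lox* 3 in 3160, *Loxl2* 2 in 2715 and *Loxl4* 1 in 1352, while the other 6 members hold none. Thus 4 of 10 members hold a match, 2 of the 5 lower genes (*Loxl2* and *Adamts2*) and 2 of the 5 uncalled genes (*Lox* and *Loxl4*). This split counts *Loxl2* as lower, although other scalings left it uncalled. Over all 11079 genes with A above 0 and an annotated 3′ UTR, 16.1% hold a match. Long 3′ UTRs hold more of any 7 letters, and among genes whose 3′ UTR is within 1.2-fold of the member's length the share was 31.5% for *Adamts2*, 29.4% for *Lox*, 25.9% for *Loxl2* and 12.9% for *Loxl4*. *Loxl3*, *Pcolce* and *Adamts14* were lower without a match, in 3′ UTRs of 1689, 60 and 1366 bases. *Pcolce2* has none in 3000 bases, a length at which 27.8% of genes hold one. The matches of *Loxl2* lie in its longest annotated 3′ UTR, and a shorter annotated transcript ends before them.

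The members were also set against the collagen they act on. *Col1a1*, *Col1a2* and *Col3a1*, the genes of the main fibrillar collagens of the heart, summed to 12483 TPM in siCtrl against 7454 TPM in si*Vgll3*, an M of −0.74, which is lower than the M of every member except *Adamts14*. The level per collagen transcript was therefore larger in si*Vgll3* for 9 of 10 members, as it was for 94.2% of all genes with A above 0, so that count says nothing particular about the members. *Pcolce2* went from 11.2 to 25.1 TPM per 1000 TPM of collagen and *Bmp1* from 16.3 to 34.1, log2 changes of 1.16 and 1.07. *Lox* went from 100.3 to 153 (0.61), *Loxl1* from 37.1 to 63.1 (0.77) and *Loxl4* from 1.83 to 3.39 (0.89). Each log2 change is the M of the gene minus that of the collagen sum. The members called lower therefore lie closer to collagen by construction. *Loxl2* had a log2 change of 0.23, *Pcolce* and *Adamts2* 0.16 each, and *Loxl3* 0.07 (0.04 to 0.09), with 12.4 and 13.0 TPM per 1000. *Adamts14* had −0.04, and its interval of −0.14 to 0.06 spans 0. With *Col1a1* alone as the reference (M −0.90), 10 of 10 ratios were larger in si*Vgll3* (95.9% of all genes), and with all 10 fibrillar collagen genes that have a TPM (M −0.73), 9 of 10 were (93.9% of all genes).

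**Figure D4:**
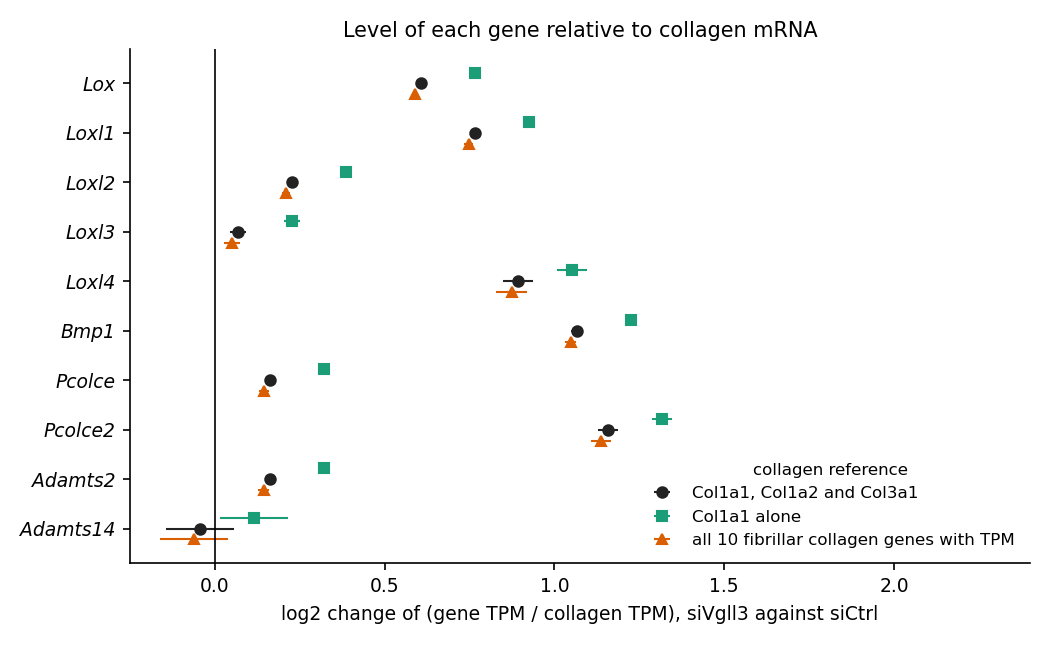
The horizontal axis gives the log2 change, si*Vgll3* against siCtrl, of each member's TPM divided by the TPM of 3 choices of collagen genes, and bars are 95% Poisson counting intervals. *Pcolce2* (1.16) and *Bmp1* (1.07) lie farthest to the right of 0, and *Loxl3* (0.07) and *Adamts14* (−0.04) lie closest to 0 with the 3 main collagen genes as the reference.

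Of the fibrillar collagen genes, the substrates of the pathway, 8 of 11 had A above 0. Of these 8, 6 were lower and 0 higher, with a median M of −0.81. Beside this list and those below, 11.4% of all genes were lower and 5.73% higher. The counts only describe the lists, which were chosen with earlier results of these data known. *Col1a1* was at 4918 TPM in siCtrl against 2631 TPM in si*Vgll3* (M −0.90), *Col3a1* at 2980 and 1645 TPM (M −0.86), and *Col1a2* at 4585 and 3179 TPM (M −0.53). *Col11a1*, a minor collagen that sits inside fibrils, had the lowest M of the list at −0.97 (140 and 71.5 TPM), and *Col5a2*, which helps set fibril width, the highest at −0.44 (1041 and 767 TPM). All 8 values were below 0, while the members' values lay on both sides of it.

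The closest relatives of the member proteinases had little mRNA. Of 9 other procollagen proteinases and proprotein convertases, *Tll2*, *Mep1a* and *Mep1b* had no read in either library. *Tll1*, the closest relative of *Bmp1*, was at 5.17 TPM in siCtrl against 5.84 TPM in si*Vgll3* (M 0.18), so *Bmp1* was the main gene of its kind in both. *Adamts3*, the other member of the N-proteinase family, was at 0.748 and 0.499 TPM (M −0.58), with A below 0, so it entered no count. Of the 5 with A above 0, 1 was lower, *Pcsk6*, a convertase that activates secreted precursors, at 41.9 TPM in siCtrl against 26.8 TPM in si*Vgll3* (M −0.64). *Furin*, the main convertase that activates pro-BMP1 and the ADAMTS precursors, was at 111 and 105 TPM (M −0.08), and *Pcsk7* at 17.7 and 15.2 TPM (M −0.22). The median M of the 5 was −0.22.

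The list of binding partners and helpers of lysyl oxidases and BMP1 had 11 genes with A above 0, of which 4 were lower and 1 higher, with a median M of −0.27. *Fmod*, a small proteoglycan that binds collagen fibrils, had the lowest M, −3.11, at 40.5 TPM in siCtrl against 4.69 TPM in si*Vgll3*. *Eln*, the elastin gene, whose protein is the other main substrate of lysyl oxidases, had an M of −2.96 and was at 43.3 and 5.55 TPM, and it was singled out after its value was seen. *Thbs1*, the matricellular glycoprotein thrombospondin, was the 1 higher gene, at 1425 TPM in siCtrl against 2119 TPM in si*Vgll3* (M 0.57). *Fn1*, the fibronectin gene, was at 4977 and 5115 TPM (M 0.04), and *Efemp2*, the fibulin that brings LOX to elastin, at 546 and 497 TPM (M −0.14), which was also the M of *Lox*.

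Precursors other than fibrillar procollagen that BMP1-type proteinases cleave did not share a direction. Of 8 with A above 0, 2 were lower and 2 higher, with a median M of 0.02. *Bgn*, the biglycan gene and the most abundant of them, was at 5155 TPM in siCtrl against 4065 TPM in si*Vgll3* (M −0.34), and *Dcn*, the decorin gene, at 614 and 514 TPM (M −0.26). The lower genes were *Ogn*, another small proteoglycan of the matrix, at 141 and 68.6 TPM (M −1.04), and *Chrd*, a BMP antagonist with only 362 and 123 reads (M −1.44). *Col7a1*, the anchoring fibril collagen, also singled out after its value was seen, was among the higher genes (M 1.00).

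**Figure D5:**
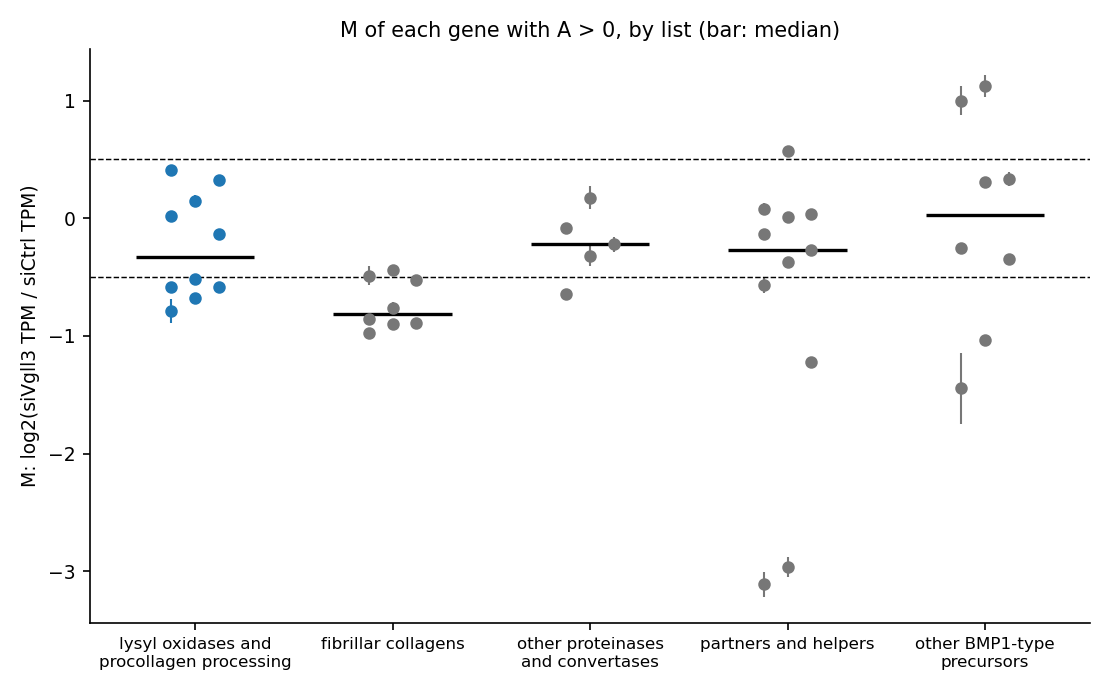
Each point is the M of 1 gene with A above 0, on the vertical axis, in columns for the 10 members and the 4 related lists, with 95% counting intervals as thin bars, the median of each list as a thick bar and dashed lines at −0.5 and 0.5. The medians are −0.33 for the members, −0.81 for the fibrillar collagens, −0.22 for the other proteinases and convertases, −0.27 for the partners and helpers, and 0.02 for the other BMP1-type precursors.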

How the data were processed

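RNA of 1 siCtrl and 1 si*Vgll3* library of cardiac myofibroblasts was analysed from the deposited gene tables. The authors used a stranded mRNA kit and, per the labels, FastQC, Trimmomatic, HISAT2 and StringTie with mm10; versions and annotation release are not given in the sources used here. The authors deposited raw read counts per gene, whole numbers without normalization, and TPM per gene, which they had normalised for length and depth in 1 table per library. All per-sample columns were used.

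M and A were computed from TPM. A call needed M below −0.5 or above 0.5 and A above 0, with no pseudocount. Counting intervals (95%) came from the raw counts with scipy 1.17.1 under Python 3.11.15 and were shifted onto the TPM ratio. With 140815237 and 125789276 counted reads, the members' intervals were 0.01 to 0.20 wide in M. No replicate test was possible, so edgeR 4.0.16 and DESeq2 1.42.0 (R 4.3.3) served for alternative scaling only. Interval code was tested on simulated Poisson counts with known changes, which hold no spread between cultures.

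Gene positions and 3′ UTRs came from GENCODE vM21, taking for each gene the coding transcript with the longest 3′ UTR. The promoter and miRNA sequences came from RefSeq. The members and lists were chosen with earlier results of these data known. Genes named were the members, *Vgll3*, and from each list the 3 with the highest mean TPM and those with the lowest and the highest M, besides genes at 0 and those said to be singled out. The values of 1 listed gene are not reported here. The labels do not name separate cultures. Alternatives were CPM, edgeR and DESeq2 scaling, added 0.1 or 1 TPM, other filters on A and reads, another A, median centring, a threshold of 1, and other collagen references.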

Additional observations from a re-analysis of the deposited data

How the results depend on the processing

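Single members were scored under 6 settings, namely CPM, edgeR and DESeq2 scaling, added 0.1 or 1 TPM, and median centring. All 60 values kept their sign, and 56 kept their call. The 4 that did not were all of *Loxl2*, whose M was −0.47 with CPM, −0.47 with edgeR scaling, −0.48 with DESeq2 scaling and −0.47 after centring on the median of all genes. These settings left 4 members lower. The choice of scaling could shift M by more than the counting error. With CPM only *Adamts14* stayed inside its own counting interval. *Lox*, for example, had an M of −0.08 with CPM, outside its interval of −0.14 to −0.13. With a threshold of 1 on M, 0 members were lower. The median M of the members was −0.27 with CPM, −0.28 with edgeR scaling, −0.28 with DESeq2 scaling and −0.28 after centring, and that of *Vgll3* was −1.21, −1.22, −1.23 and −1.22. The share of *Lox* by CPM, which does not correct for length, was 57.8% in siCtrl and 60.7% in si*Vgll3*. Of 136 values of the other lists, 16 moved and 0 reversed, where small changes of a count or a median were not scored as moved. Among those that moved was the median M of the fibrillar collagens, −0.81 over 8 genes in the main setting. It was −0.70 over 9 genes with CPM and −0.63 over 10 genes with 1 TPM added. No paired analysis was possible because siCtrl and si*Vgll3* had a single library each. Leaving out a library leaves nothing to compare. Depth limited only *Adamts14* (interval 0.20 wide), and the spread between cultures is unknown.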

Other observations

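The ratio of reads to TPM, which depends on the transcript length used for the TPM, hardly differed between the libraries for these genes. Its log2 change lay between −0.015 and 0.009 for the 10 members after removal of the median, beside a central 95% of −0.033 to 0.027 over all genes with A above 0.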
